A study of Mus musculus with 30 samples.

Results

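The genes described here are the mouse zinc-finger genes whose symbol is Zfp followed by a number. They were chosen on measured level: a mean of at least 5 CPM (a gene's reads scaled to the same library total, in the usual CPM unit) over the 15 libraries of either cell line. Zfp36, which codes for an mRNA decay factor, and Zfp42, a marker of pluripotent cells, were left out. Of 372 such genes in a table of 57186, 285 reached that level and 87 did not. In NIH/3T3 cells 223 reached it, in CGR8 cells 261, and in both lines 199. By count of calls they fell early at near the rate of all genes: after 2 h of drug, 53 of the 269 that could be tested in NIH/3T3 had fallen (18.9% of all genes tested) and 51 had risen (16.1%). How long their messages live was not measured. They are therefore called Zfp genes here. Zfp251 and Zfp296 had been singled out for their early fall in these same libraries, so their levels at 1 and 2 h are a description without a test. Their tests at 5 and 48 h reuse the 0 h libraries of that choice and are read with that limit.

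The study followed RNA in both lines through 0, 1, 2, 5 and 48 h of cycloheximide at 0.1 µg/mL, with 3 libraries (A, B and C) per line and time, 30 libraries in 10 groups. NIH/3T3 is a mouse fibroblast line, grown here in DMEM with serum. CGR8 is a mouse embryonic stem cell line, kept in N2B27 medium plus 2i and LIF, which hold such cells undifferentiated. All cells of both lines, the 0 h cells too, carried an SLT reporter knocked in at the ROSA26 locus, and the labels give the same drug dose to the 0 h libraries as to the treated ones. The labels do not say whether the 3 libraries of a group came from separate cultures, so p-values measure only the spread between these libraries, which may be technical. In bulk RNA, fewer cells and less RNA per cell cannot be told apart.

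Zfp proteins belong to the C2H2 class of DNA-binding proteins. Each finger holds a zinc ion between a pair of cysteines and a pair of histidines, and tandem fingers read a DNA sequence. Many carry a KRAB domain near the start of the protein, which recruits KAP1 (Trim28) and through it histone and DNA methylation, a route known in stem cells for silencing retroelements and holding imprints. Cycloheximide stops ribosomes from elongating and leaves transcription running, so the values below are levels in the presence of the drug and not half-lives. Translation itself was not measured here. Messages whose decay needs translation, or whose repressors turn over fast, are known to rise under the drug.

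Of the 285 genes, 283 had a coding transcript in the reference (GENCODE M21, GRCm38). The finger pattern searched was Cys, 2 to 4 residues, Cys, 12 residues, His, 3 to 5 residues, His. It was found in 278 of the 283 (98.2%), against 5.42% of all 10685 coding genes at the same level, with a median of 11 fingers and a middle range of 7 to 14. Zfp703, Zfp330, Zfp365, Zfp839 and Zfp185 had no match. Either of a pair of alternative patterns of conserved KRAB A-box residues was found in the first 250 residues of 161 (56.9%), against 2.13% of all coding genes. The KRAB genes had a median of 12 fingers and the others 8. Median transcript GC content was 41.2% in the KRAB genes and 50.7% in the others, and 50.3% over all genes at that level. The pentamer ATTTA, the core of AU-rich decay elements, was searched on the coding strand of the 3' untranslated region. It was present in 213 (75.3%), against 66.4% of all coding genes at the level, whose untranslated regions were of other lengths.

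Coding stretches of 4 members the results turn on are shown because the parts they share and lack recur below: Zfp759 rose, Zfp110 rose in both lines, Zfp251 and Zfp296 fell early. The first set is the KRAB stretch, read from the GRCm38 reference, with the codons the matched pattern requires in capitals. Zfp759 and Zfp251 matched the same pattern and Zfp110 the alternative one, which covers other residues, so its stretch is not the counterpart of theirs. Zfp759 lies at chr13:67136799-67136819 (+), Zfp110 at chr7:12836311-12836352 (+) and Zfp251 at chr15:76870307-76870327 (-). Each stretch falls within 1 coding exon.
Zfp759: TACaggGATGTGATGctgGAG
Zfp110: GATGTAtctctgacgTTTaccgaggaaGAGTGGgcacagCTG
Zfp251: TACcggGATGTGATGttgGAG
Zfp296 has no match to the KRAB pattern. The second set is the first match to the finger pattern in each gene, with the cysteine and histidine codons the pattern requires in capitals. They lie at chr13:67138876-67138938 (+) in Zfp759, chr7:12849488-12849556 (+) in Zfp110, chr15:76854220-76854282 (-) in Zfp251 and chr7:19579639-19579704 (+) in Zfp296, each within 1 coding exon.
Zfp759: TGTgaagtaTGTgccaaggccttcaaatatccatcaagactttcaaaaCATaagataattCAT
Zfp110: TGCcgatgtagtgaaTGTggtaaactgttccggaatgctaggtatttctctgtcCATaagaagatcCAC
Zfp251: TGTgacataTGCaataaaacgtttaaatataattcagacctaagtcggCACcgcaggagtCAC
Zfp296: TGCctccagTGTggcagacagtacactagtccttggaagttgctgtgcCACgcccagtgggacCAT
GC content of the finger stretch is 33.3% in Zfp759, 43.5% in Zfp110, 39.7% in Zfp251 and 57.6% in Zfp296. The Zfp110 stretch starts at the earliest cysteine that fits. The pattern also fits from the lowercase cysteine codon tgt between its capital cysteine codons. The search cannot decide which of these cysteines belongs to the finger. The Zfp110 stretch and its GC content may therefore include codons upstream of the finger. The KRAB stretches are each at 52.4%, but that of Zfp110 covers other residues than those of Zfp759 and Zfp251.

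Libraries held 18.2 to 30.5 M counts (median 24.3 M). The 6 stem cell markers summed to 3540 to 5340 CPM in CGR8 and to at most 0.511 CPM in NIH/3T3, and the 6 fibroblast markers to 4490 to 11200 CPM in NIH/3T3 and at most 5.66 CPM in CGR8, as labelled. Marker lists also moved with time. In NIH/3T3 the fibroblast sum was 6930 to 7480 CPM at 0 h, 4750 to 5570 at 5 h and 10800 to 11200 at 48 h. In CGR8 the sum of 4 mesendoderm markers went from 26.3 to 29.1 CPM at 0 h to 4.11 to 5.59 at 48 h, and that of 3 trophoblast markers from 24.4 to 27.8 to 5.27 to 8.28. The sum of 4 neural markers was 126 to 158 CPM at 0 h, 76.5 to 83.8 at 5 h and 132 to 152 at 48 h. That of 4 endoderm markers went up, from 1.57 to 2.23 CPM at 0 h to 3.87 to 4.36 at 48 h. In NIH/3T3 the endoderm sum, all of it Gata4, went from 11.8 to 12.6 CPM at 0 h to 20.3 to 21.1 at 48 h. Their part in the Zfp results was not tested. Some libraries stood apart from their group. In a fit that weights libraries by their spread (others 0.58 to 3.08), the lowest weights were 0.0769 for NIH/3T3 1 h C, 0.13 for NIH/3T3 2 h A, 0.27 for CGR8 2 h A and 0.334 for CGR8 0 h B, followed by CGR8 5 h A at 0.347 and 5 h C at 0.423. The Zfp genes took part in this: their median log2 level relative to the 0 h mean was -0.28 in NIH/3T3 2 h A against 0.09 and -0.02 in B and C, and -0.25 in CGR8 2 h A against 0.24 and 0.16. In CGR8 at 5 h it was -0.06, 0.05 and 0.34 in A, B and C. Results that rest on these libraries are given with and without them.

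Together the members summed to 5160 to 6830 CPM in NIH/3T3 and 8450 to 12200 CPM in CGR8. Per kilobase of transcript, the most abundant in NIH/3T3 were Zfp207, a spindle assembly and splicing factor (198 CPM per kb), Zfp740 (81.5) and Zfp146 (43.2). In CGR8 they were Zfp207 (251), Zfp57, which keeps imprints methylated (154), and Zfp740 (139). Around the threshold of 5 CPM, the higher of both line means was 4.79 CPM for Zfp653, 4.81 for Zfp420 and 4.92 for Zfp786, just outside, and 5.12 for Zfp595, 5.13 for Zfp109 and 5.20 for Zfp442, just inside. Of the 285 members, 269 passed the filter on low counts in NIH/3T3 and 283 in CGR8. Members not tested in a line reached at most 0.555 CPM there in NIH/3T3 and 0.387 CPM in CGR8.

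Zfp251, a KRAB gene with 11 fingers, fell early in both lines. In NIH/3T3 its level was 14.6, 15.3 and 16.6 CPM at 0 h, 8.19, 7.71 and 7.03 CPM at 1 h, and 2.51, 3.56 and 3.55 CPM at 2 h. No library of these 3 times overlapped one of another time, and the fitted change was -1.02 log2 at 1 h and -2.26 log2 at 2 h, given without a test because it chose the gene. In CGR8 the level was 15.9, 14.3 and 13.4 CPM at 0 h, 7.59, 6.84 and 8.45 CPM at 1 h, and 4.43, 6.82 and 5.75 CPM at 2 h, with changes of -0.93 and -1.36. All 1 h libraries were below those of 0 h, and all 2 h libraries just below those of 1 h. By 5 h the gene had come most of the way back, to 10.6, 10.9 and 9.99 CPM in NIH/3T3 and 9.99, 10.2 and 10.2 CPM in CGR8, still below 0 h in every library (-0.56 ± 0.11 SE, adjusted p = 0.000639, and -0.52 ± 0.14 SE, adjusted p = 0.00516, edgeR quasi-likelihood test with Benjamini-Hochberg adjustment, as for all adjusted p below). The CGR8 call ended when GC and length trends were removed (-0.22, adjusted p = 0.177). At 48 h it stood at 11.6, 12.2 and 11.2 CPM in NIH/3T3 (-0.41 ± 0.11 SE, adjusted p = 0.00608) and at 11.2, 12.3 and 12.3 CPM in CGR8 (-0.29 ± 0.14 SE, adjusted p = 0.132). The 5 and 48 h tests reuse the 0 h libraries behind the choice of the gene, so they do not establish a lasting fall.

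Zfp296, a partner of KLF4 in stem cells with 6 fingers and no KRAB match, was a CGR8 gene. Its level there was 60.1, 64.1 and 46.9 CPM at 0 h, 30.7, 27.9 and 25.4 CPM at 1 h and 14.1, 13 and 11.4 CPM at 2 h. These 3 sets of libraries did not overlap, with changes of -1.03 and -2.16 log2 that are again a description. It then passed its starting level, at 105, 98 and 80.6 CPM at 5 h (0.73 ± 0.13 SE, adjusted p = 0.00032) and 126, 140 and 121 CPM at 48 h (1.18 ± 0.13 SE, adjusted p = 1.2e-05). All libraries of 5 and 48 h lay above all of 0 h. Both tests reuse the 0 h libraries behind the choice of the gene. In NIH/3T3 it stayed between 0.128 and 1.04 CPM. Gemin7 overlaps its exons on the other strand, and the sources used here do not state how strand was counted.

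**Figure D1:**
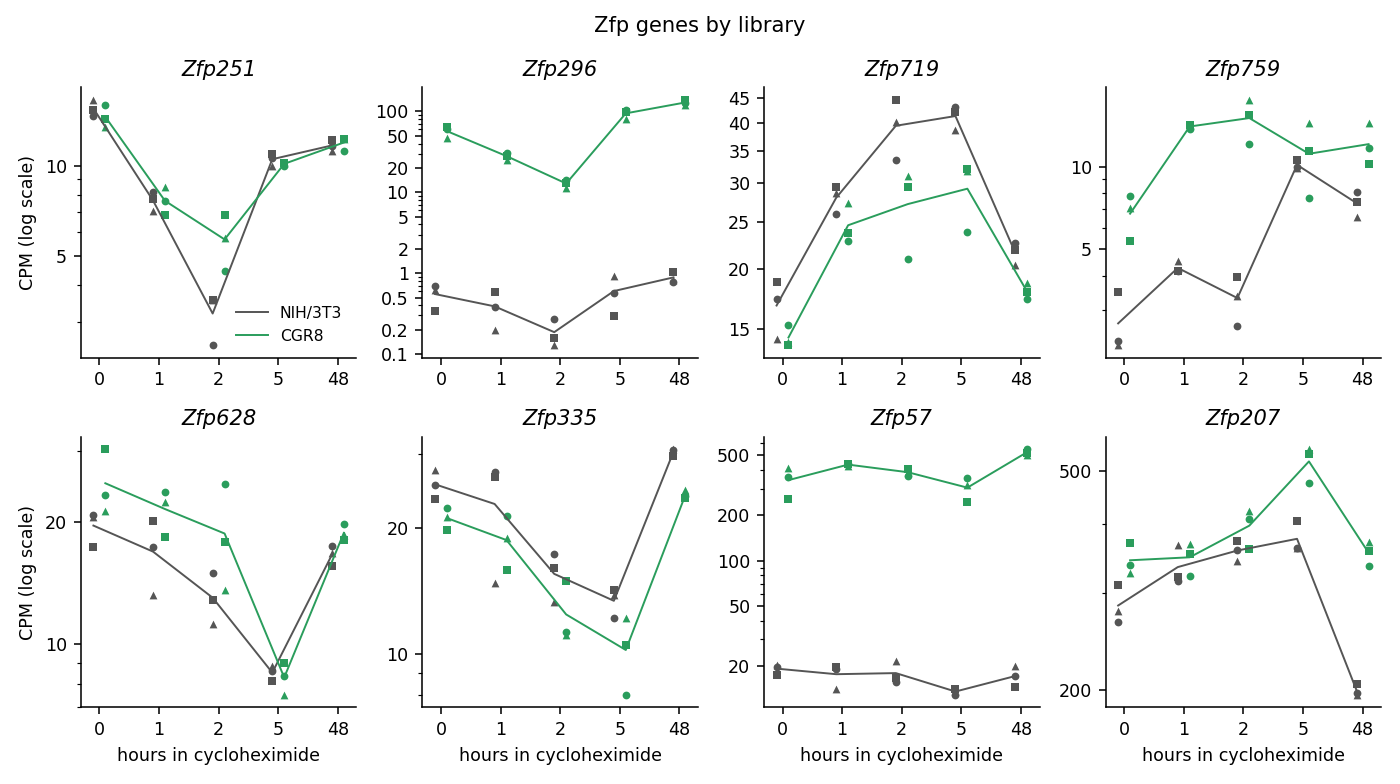
TMM-scaled CPM (log axis) of 8 Zfp genes against hours of cycloheximide, in NIH/3T3 and CGR8; symbols are replicates A, B and C and lines join group means. Zfp251 and, in CGR8, Zfp296 are lowest at 2 h and climb by 5 h, while Zfp719 is already higher at 1 h and back near its start at 48 h.

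At 1 h few members passed the test. In NIH/3T3, 1 of 269 rose (background: 0.653% of the 13941 genes tested) and 1 fell (background 0.0789%), with 76 members at an unadjusted p under 0.05. In CGR8, 2 of 283 rose (background 0.144% of 15933) and 2 fell (background 0.126%), with 62 at an unadjusted p under 0.05. With RLE factors, another scaling of the libraries, 1633 of all 13941 genes were under 0.05 unadjusted in NIH/3T3, and 1328 of 15933 in CGR8. The NIH/3T3 fall was Zfp251 and the CGR8 falls were Zfp251 and Zfp296, both chosen for it, so nothing is read from the counts of falls. The NIH/3T3 count of rises turned on single libraries: without 1 h C 30 of 270 members rose (3.01% of all genes), and without 0 h B 13 of 269 (1.23%). With NIH/3T3 1 h C and 2 h A both left out, a setting chosen after seeing the data, 95 of 270 rose and 7 fell, where 9.89% and 4.82% of all genes did. In CGR8, leaving out the low-weight libraries gave 1 and 2.

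Zfp719, a KRAB gene with 13 fingers, was the member that rose at 1 h in both lines. In NIH/3T3 its level was 17.3, 18.8 and 14.3 CPM at 0 h and 25.9, 29.5 and 28.7 CPM at 1 h (0.74 ± 0.12 SE, adjusted p = 0.00327), a call lost when the compared groups were fitted alone (adjusted p = 0.137). It reached 33.6, 44.7 and 40.1 CPM at 2 h and 43.2, 42.2 and 38.6 CPM at 5 h, then fell back to 22.6, 21.9 and 20.4 CPM at 48 h. Every treated library was above every 0 h library. In CGR8 it went from 15.3, 13.9 and 14.1 CPM to 22.8, 23.7 and 27.3 CPM at 1 h, without overlap, and the call at 1 h (0.77 ± 0.15 SE, adjusted p = 0.0438) was lost when any 1 of the 6 libraries was left out and with library size alone. Zfp759, with 21 fingers, was the other CGR8 riser, from 7.8, 5.37 and 7.07 CPM to 13.7, 14.2 and 14.2 CPM (1.05 ± 0.21 SE, adjusted p = 0.0477), a call also lost when any 1 of the 6 was left out or with library size alone (adjusted p = 0.0738).

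By 2 h members had moved in both directions at near the rate of other genes. In NIH/3T3, 51 of 269 rose (background 16.1%) and 53 fell (background 18.9%), with a median of -0.05 log2. Of the falls, 12 were 2-fold or more, against 1.5% of all genes tested. In CGR8, 32 of 283 rose (background 8.97%) and 35 fell (background 11.0%), 3 of them by 2-fold (background 0.96%), with a median of 0.08. The backgrounds, here and below, include genes under 5 CPM, unlike the members. Among all genes at a mean of 5 CPM or more in the line, 77 of 9789 fell by 2-fold in NIH/3T3 and 67 of 9889 in CGR8. Leaving out NIH/3T3 1 h C and 2 h A gave 90 risen and 72 fallen of 270 (background 26.7% and 27.3%). These counts moved with single libraries. In NIH/3T3, 28 rose without 0 h C or without 2 h B (11.7% and 11.6% of all genes), 29 without 0 h A (9.08%) and 78 without 2 h A (18.6%). In CGR8, 16 rose and 19 fell without 2 h C (2.6% and 3.93% of all genes), 17 rose without 0 h A (3.44%), and 54 rose without 2 h A (9.2%). With the compared CGR8 groups fitted alone, 12 rose and 18 fell (2.29% and 4.11%). With GC and length trends removed, 64 rose and 20 fell (7.5% and 8.1%). The falls include Zfp251 and Zfp296 in both lines, which were chosen for them.

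Besides Zfp251, the falls by size at 2 h in NIH/3T3 were Zfp12, Zfp553, Zfp324 and Zfp664. Zfp12 went from 19.7, 19 and 18.6 CPM to 6.54, 8.84 and 7.71 CPM (-1.30 ± 0.13 SE, adjusted p = 4.82e-06) and was back at 21.5, 21.3 and 23.6 CPM at 5 h. Zfp553 fell by 1.21 log2 and Zfp324 by 1.13. Zfp664 went from 86.5, 82.9 and 84.5 CPM to 41.1, 38.2 and 40.7 CPM (-1.08 ± 0.11 SE, adjusted p = 3.54e-06). The 0 h and 2 h libraries of all of these were separate. Zfp324 then climbed past its start, from 5.13, 5.38 and 5.95 CPM at 0 h to 12.7, 13.1 and 12.8 CPM at 48 h. In CGR8, Zfp704 fell by 0.87 log2, Zfp652 by 0.77 and Zfp335, a component of a histone H3K4 methyltransferase complex, by 0.76, from 22.3, 19.8 and 21.2 CPM to 11.3, 14.9 and 11.1 CPM. The calls of Zfp704 and Zfp335 at 2 h ended with GC and length trends removed (adjusted p = 0.107 and 0.0736). That of Zfp704 also ended without 2 h C (adjusted p = 0.0601). Pcif1 overlaps exons of Zfp335 on the other strand, and Abi3 those of Zfp652.

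Risers at 2 h in NIH/3T3 were Zfp719 (1.24 log2), Zfp948 (1.23) and Zfp867 (1.19), all KRAB genes. Zfp867 went from 9.57, 12.9 and 11.5 CPM to 16.2, 30.6 and 30.4 CPM. Library A was the low one, as for the members as a whole. In CGR8 they were Zfp759 (1.16), Zfp105 (0.98) and Zfp493 (0.92). Zfp105 went from 27, 32.9 and 29.4 CPM to 53.8, 57.8 and 64.3 CPM and on to 74, 71.9 and 66.5 CPM at 5 h, all above 0 h, and was at 0 in every NIH/3T3 library.

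At 5 h the Zfp genes had risen more often than other genes in NIH/3T3. There 144 of 269 rose (background 24.0%) and 45 fell (background 27.1%), with a median of 0.40 log2 where the median over all genes was within 0.02 of 0. By 2-fold or more, 53 rose (background 4.68%) and 6 fell (background 4.91%). Of the 9789 genes at a mean of 5 CPM or more in the line, 283 rose and 339 fell by 2-fold. The member median was 0.34, 0.40 and 0.40 in the 3 libraries at 5 h, all above the 0 h libraries (-0.02, 0.09 and -0.07). In CGR8, 82 of 283 rose (background 24.9%) and 57 fell (background 27.2%), with a median of 0.17. Of these, 11 rose (background 7.51%) and 8 fell (background 8.27%) by 2-fold. Of the 9889 genes at a mean of 5 CPM or more in CGR8, 495 rose and 589 fell by 2-fold. The CGR8 balance moved with single libraries: without 5 h C, 54 rose and 60 fell, with a median of -0.01, where 24.0% and 26.9% of all genes did. Without 0 h B, 59 rose and 56 fell (24.3% and 25.6% of all genes), and without 5 h A 101 and 47 (22.1% and 23.0%). Sample weights gave 84 risen and 84 fallen (29.8% and 33.2%), with a median of 0.03. With library size alone as the scale, 54 rose and 68 fell (20.5% and 31.2% of all genes).

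**Figure D2:**
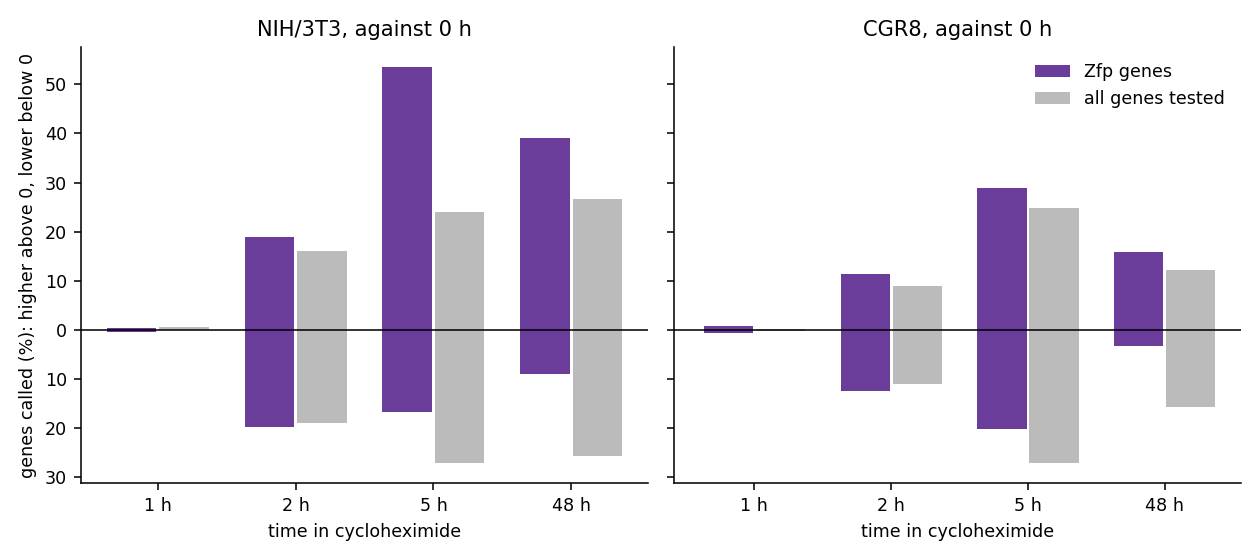
Percent of tested Zfp genes and of all tested genes called higher or lower than 0 h (adjusted p under 0.05) at each time, in NIH/3T3 and CGR8. At 5 h in NIH/3T3 the bar of Zfp genes called higher stands well above that of all genes, and the bar called lower stands below it.

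Most of the members that rose at 5 h were KRAB genes. This split, and those by GC content, finger number and shared sequence, were made after values had been seen. In NIH/3T3, 109 of 151 KRAB members rose and 4 fell, with a median of 0.73 log2, and 49 rose by 2-fold or more. Of the 117 others, 34 rose and 41 fell, with a median of -0.09. In CGR8, 57 of 160 KRAB members rose and 10 fell (median 0.38), while of 122 others 25 rose and 47 fell (median -0.22). KRAB finger genes that were not members did the same: 70 of 94 rose and 0 fell in NIH/3T3 (median 0.91). In CGR8, 38 of 108 of them rose and 3 fell (median 0.52). That set had no cut at 5 CPM and did not exclude Zfp genes below it, so it is not a set of other names. Without CGR8 5 h C, 35 of the 160 KRAB members rose, where 24.0% of all genes did. With library size alone as the scale it was 36 of 160, where 20.5% of all genes rose.

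Per library, the KRAB median relative to 0 h was 0.60, 0.66 and 0.63 log2 at 5 h in NIH/3T3, against -0.05, 0.15 and -0.13 at 0 h. Without KRAB it was -0.13, -0.12 and -0.04. In CGR8 the KRAB median was 0.05, 0.21 and 0.61 at 5 h, against 0.10, -0.29 and 0.14 at 0 h, and that of the others was -0.26, -0.22 and -0.17. The KRAB libraries at 5 h and 0 h were thus apart in NIH/3T3 and overlapped in CGR8, where the non-KRAB medians agreed closely between libraries.

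**Figure D3:**
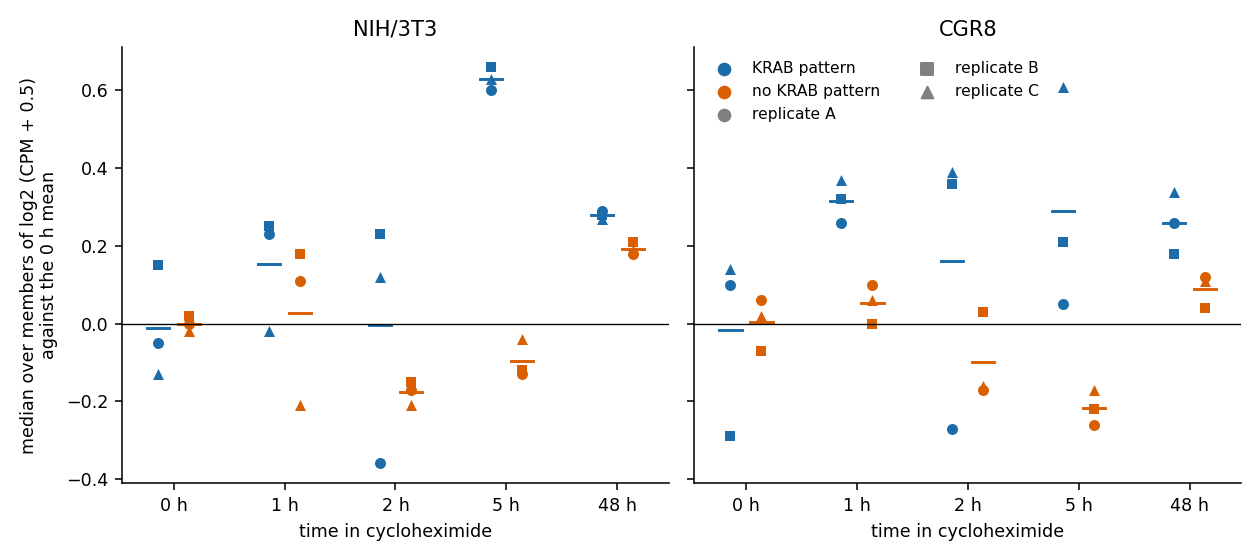
Median log2 level (CPM plus 0.5) of KRAB and non-KRAB Zfp genes relative to the 0 h mean of each line, one point per library, against hours of cycloheximide. In NIH/3T3 the KRAB points at 5 h sit between 0.60 and 0.66, above all others, and in CGR8 they spread from 0.05 to 0.61.

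GC content moved with the same change. The members were split into 3 GC classes of like size. Members of the low class (up to 41.1%) rose in 83 of 92 cases and fell in 0 in NIH/3T3 at 5 h (median 0.97), those of the middle class in 46 of 86 with 9 falls (0.33), and those above 48.8% in 15 of 91 with 36 falls (-0.24). In CGR8 the same classes gave 29 of 95 risen and 1 fallen, 39 of 94 and 19, and 14 of 94 and 37. All genes showed a slope of the same sign: of all tested genes with GC up to 41.1%, 588 of 1129 rose and 62 fell in NIH/3T3 (median 0.47), and 371 of 1218 rose and 86 fell in CGR8 (median 0.28). Across the 269 members tested in NIH/3T3, GC and the 5 h change had a Spearman rho of -0.74, and across 283 in CGR8 of -0.49. Over all genes rho was -0.38 (13674 genes) and -0.22 (15589 genes). These are descriptions over genes that share their libraries.

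KRAB and GC overlap as features, and each GC class held both kinds. In NIH/3T3, 71 of 78 KRAB and 12 of 14 other members of the low class rose, 34 of 53 and 12 of 33 of the middle class, and 4 of 20 and 10 of 70 of the high class. In CGR8 it was 27 of 80 and 2 of 14, 26 of 57 and 13 of 37, and 4 of 23 and 10 of 71. With GC and length trends removed as offsets, 95 KRAB members rose and 4 fell in NIH/3T3, and 44 others rose and 22 fell. In CGR8 77 KRAB members rose and 16 fell, and 43 others rose and 28 fell. With these offsets 24.1% of all genes rose and 24.7% fell in NIH/3T3, and 23.8% and 23.0% in CGR8. Their separate part in the rise was not tested beyond these counts.

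**Figure D4:**
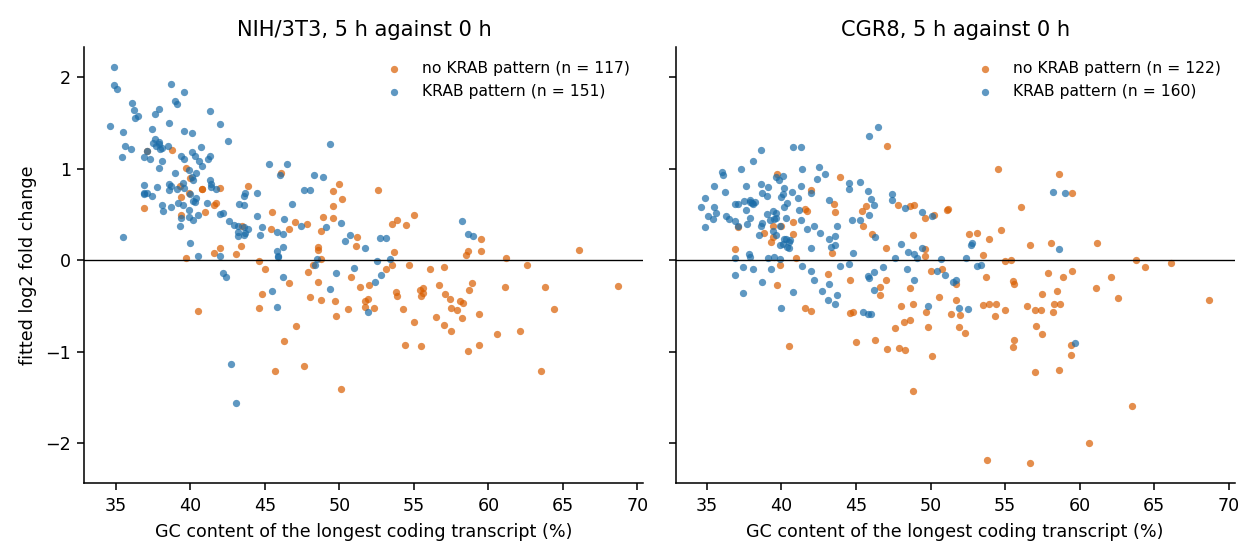
Fitted log2 fold change at 5 h against transcript GC content (%), one point per Zfp gene, KRAB and non-KRAB in separate colours, for NIH/3T3 and CGR8. The points run from high change at low GC to negative change at high GC, more steeply in NIH/3T3 (rho -0.74) than in CGR8 (rho -0.49), with KRAB genes toward the low GC side.

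Other features followed the change less. Spearman rho with the 5 h change was 0.29 and 0.15 for finger number in NIH/3T3 and CGR8, -0.16 and -0.25 for transcript length, and 0.13 and 0.06 for the number of ATTTA pentamers. In NIH/3T3, 11 of 38 members with 0 to 4 fingers rose and 15 fell, against 59 of 99 and 10 with 10 to 14 fingers. Near-identical copies can split or share reads. The 17 members with over 50% of their 50-base stretches in other genes are uncertain for that reason, and 13 of the 16 tested in NIH/3T3 rose at 5 h. Of the remaining 253, 131 rose and 45 fell, so the count does not rest on them.

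Among falls at 5 h, those by size in NIH/3T3 were Zfp521, Zfp628, Zfp365, Zfp710 and Zfp395, none with a KRAB match. Zfp521, a transcriptional co-regulator with 27 fingers, went from 32, 29.3 and 28.8 CPM to 10.8, 11.2 and 11.9 CPM (-1.41 ± 0.13 SE, adjusted p = 3.69e-07) and was back at 28.3, 28.6 and 30.8 CPM at 48 h. Zfp628, at a GC of 63.5%, went from 20.9, 17.4 and 20.6 CPM to 8.6, 8.12 and 8.83 CPM in NIH/3T3 (-1.21) and from 23.3, 30.3 and 21.3 CPM to 8.34, 9.02 and 7.5 CPM in CGR8 (-1.59 ± 0.19 SE, adjusted p = 9.34e-06). The groups were separate in each case, and at 48 h neither line was called (-0.24 and -0.41). Zfp365 fell by 1.15 log2, Zfp710 by 0.94 and Zfp395 by 0.93.

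In CGR8 the falls by size at 5 h were led by Zfp423 and Zfp516. Zfp423, a cofactor of BMP-SMAD signalling known from fat cell commitment, went from 30, 30.6 and 27.6 CPM to 5.55, 6.33 and 7.04 CPM (-2.22 ± 0.14 SE, adjusted p = 1.12e-07) and returned to 21.3, 23.8 and 25.8 CPM at 48 h. Zfp516, a factor of brown fat, went from 20.6, 20.7 and 21.5 CPM to 3.86, 5.64 and 4.39 CPM (-2.18 ± 0.19 SE, adjusted p = 7.44e-07). All 0 h libraries of both were above all 5 h libraries. Zfp865 fell by 1.22 log2 and Zfp341 by 1.20. Exons of Zfp865 overlap those of Zfp784 on the other strand and Ccdc106 on the same strand.

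The risers by size at 5 h were KRAB genes in NIH/3T3. Zfp759 went from 2.32, 3.5 and 2.23 CPM to 10, 10.6 and 9.9 CPM (1.93 ± 0.17 SE, adjusted p = 3.14e-07) and stood at 8.08, 7.47 and 6.56 CPM at 48 h. Zfp738 went from 4.05, 6.1 and 3.81 CPM to 15.5, 15.5 and 15.4 CPM (1.74 log2), and Zfp978, which shares 75.9% of its 50-base stretches with other genes, rose by 1.84. No 5 h library came down to a 0 h library in these 3 genes. In CGR8, Zfp110, the neurotrophin receptor-interacting factor, went from 80, 89.9 and 83.5 CPM to 212, 255 and 228 CPM (1.46 ± 0.10 SE, adjusted p = 1.59e-07). In NIH/3T3 it went from 24.6, 26.8 and 23.5 CPM to 51.5, 51.3 and 52.3 CPM (1.05). Zfp949 rose by 1.36 and Zfp105 by 1.25 in CGR8.

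After 48 h more members stood above than below 0 h in both lines. In NIH/3T3, 105 of 269 were higher (background 26.7%) and 24 lower (background 25.6%), with a median of 0.29 log2. By 2-fold or more, 18 were higher (background 7.3%) and 3 lower (background 5.1%). Of the 9789 genes at a mean of 5 CPM or more in the line, 400 were 2-fold higher and 294 lower. In CGR8, 45 of 283 were higher (background 12.2%) and 9 lower (background 15.6%), with a median of 0.20. There 6 were 2-fold higher (background 3.4%) and 0 were 2-fold lower (background 5.31%). Of the 9889 genes at a mean of 5 CPM or more in CGR8, 124 were 2-fold higher and 264 lower. Member medians per library were 0.27, 0.26 and 0.25 in NIH/3T3 and 0.18, 0.10 and 0.25 in CGR8. At this time KRAB and other members alike were more often higher than lower: 57 of 151 KRAB members were higher and 10 lower in NIH/3T3, against 47 and 14 of 117 others, and in CGR8 28 and 2 against 17 and 7. In NIH/3T3, with GC and length trends removed, 88 members were higher and 43 lower (28.5% and 28.3% of all genes), with a median of 0.13. The CGR8 counts moved with the setting. Leaving out 1 library gave 29 (48 h C, 8.15% of all genes) to 37 higher, and 4 (0 h B or 48 h B, 11.7% and 11.5% of all genes) to 8 lower. Sample weights gave 84 and 26 (20.7% and 23.6% of all genes), GC and length offsets 62 and 25 (16.8% and 19.3%), the compared groups alone 70 and 13 (16% and 18%), and no filter on low counts 76 higher (6.67%).

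Genes are named by size of change among called members at 5 CPM or more in the higher group with separate libraries. By that rule Zfp316 rose most at 48 h in NIH/3T3, from 13.3, 11.3 and 11.4 CPM to 36.9, 37.4 and 39.7 CPM (1.66 ± 0.15 SE, adjusted p = 2.86e-07). Its 5 h libraries, at 14.9, 14.4 and 14.8 CPM, lay above 0 h but were not called (0.29 log2), and all of 48 h lay far above both. Zfp759 (1.47 log2) and Zfp827 (1.34) followed. The falls by size were those of Zfp940, from 11.7, 15.1 and 11.1 CPM to 6.23, 5.92 and 6.14 CPM (-1.05 ± 0.12 SE, adjusted p = 4.08e-06), and Zfp511, which fell by 1.01. Zfp472 fell by 0.86, and Zfp28 and Zfp961 by 0.53 each. The call of Zfp28 was lost without 0 h B (adjusted p = 0.0847).

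In CGR8, Zfp334 rose by 48 h from 8.15, 7.87 and 6.99 CPM to 17.6, 17.1 and 19.1 CPM (1.23 ± 0.14 SE, adjusted p = 9.2e-06), with separate libraries, and Zfp235 rose by 1.08 log2 in both lines. Zfp184 was up at 5 h and down at 48 h, from 13.8, 12.7 and 12.6 CPM through 20.4, 18.9 and 20 CPM to 7.85, 7.64 and 7.28 CPM (0.60 at 5 h and -0.78 ± 0.10 SE, adjusted p = 4.87e-05, at 48 h). All groups of the 3 times were separate. Smaller falls at 48 h were those of Zfp282 (-0.54), Zfp637 (-0.53), Zfp639 (-0.52) and Zfp819 (-0.46). The calls of Zfp282 and Zfp637 were lost without 0 h B (adjusted p = 0.0646 and 0.219). That of Zfp282 was also lost without 48 h B (adjusted p = 0.054). That of Zfp637 was also lost without 0 h A, without 48 h A, B or C, and with RLE factors.

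The 5 h and 48 h values share their 0 h libraries, so 48 h was also set against 5 h directly. In NIH/3T3, 70 of 269 members were higher at 48 h than at 5 h (background 34.1%) and 91 lower (background 31.4%), with a median of -0.16 log2. Among KRAB members 10 were higher and 72 lower (median -0.42), and among the others 60 were higher and 18 lower (0.33). In CGR8, 74 of 283 were higher (background 28.9%) and 41 lower (background 28.6%), with a median of 0.08. KRAB members split 23 against 24 (-0.07) and the others 51 against 17 (0.38). With GC and length trends removed the balance moved, to 46 higher and 115 lower in NIH/3T3 (31.5% and 31.0% of all genes). In CGR8 it moved to 52 and 90 (26.3% and 28.3%).

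Members with known work outside plain DNA repression were read by role, in lists written with earlier results of these data known. Their counts include Zfp593 and Zfp932, which were tested but lie below 5 CPM. They are small and stand beside the shares of all genes called: at 2, 5 and 48 h, 16.1%, 24.0% and 26.7% rose and 18.9%, 27.1% and 25.6% fell in NIH/3T3. In CGR8 8.97%, 24.9% and 12.2% rose and 11.0%, 27.2% and 15.6% fell. Of the ribosome and translation genes (4 tested), 2 rose and 1 fell at 2 h in NIH/3T3, 0 and 1 at 5 h, and 0 and 2 at 48 h, and in CGR8 1 rose and 1 fell at each time. Zfp598, the ubiquitin ligase that marks collided ribosomes, was 146, 128 and 132 CPM at 0 h in CGR8 and 74.9, 68.5 and 69.4 CPM at 5 h (-0.93 ± 0.10 SE, adjusted p = 3.28e-06), and 133, 139 and 127 CPM at 48 h. The 5 h libraries lay below all others of those 3 times. In NIH/3T3 it fell by 0.59 at 5 h, a call that ended with GC and length trends removed (-0.07, adjusted p = 0.582). Zfp622, a factor of large ribosomal subunit assembly, rose in CGR8 from 79, 100 and 79.1 CPM to 152, 130 and 100 CPM at 5 h and 137, 160 and 147 CPM at 48 h (0.56 and 0.78 log2).

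Of the genes known for imprints and retroelements, 1 of 4 rose and 0 fell at 2 h in NIH/3T3, 0 rose and 1 fell at 5 h, and 1 and 0 at 48 h. In CGR8 it was 1 and 0 of 5 at 2 h, 1 and 1 at 5 h and 1 and 1 at 48 h. Zfp57 in CGR8 was at 360, 257 and 411 CPM at 0 h and 550, 519 and 506 CPM at 48 h (0.61 ± 0.15 SE, adjusted p = 0.0059). All 48 h libraries were above all 0 h libraries. Zfp809, which silences retroviruses, fell at 5 h in CGR8, from 37.5, 25.7 and 38.9 CPM to 17.3, 23 and 27.4 CPM (-0.59), with overlap of one 5 h and one 0 h library. The call was lost without 5 h A (adjusted p = 0.0914), without 0 h A (0.0641) or without 0 h C (0.0727). Zfp568, which represses an Igf2 promoter, was higher at 48 h in NIH/3T3 (0.55) and not called in CGR8 (-0.14).

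Among 5 genes of the stem cell network, 0 rose and 2 fell at 2 h in CGR8, 1 and 1 at 5 h, and 1 and 0 at 48 h. In NIH/3T3 it was 1 and 2, 0 and 1, and 3 and 0. The falls at 2 h in both lines include Zfp296, chosen for that fall and in NIH/3T3 at 0.272, 0.16 and 0.128 CPM by then, so no result is read from them. Zfp296 is also the gene that rose at 5 h and at 48 h in CGR8, tested against the 0 h libraries behind its choice. Zfp143 fell at 5 h in CGR8, from 40.9, 33.9 and 41.5 CPM to 23.4, 27.8 and 27.9 CPM (-0.56 ± 0.13 SE, adjusted p = 0.00184), with no overlap, and Zfp217 fell by 0.55 at 2 h, a call lost without 2 h C (adjusted p = 0.0527). Zfp462 was higher at 48 h in NIH/3T3 (0.63, adjusted p = 0.00606), a difference of -0.00 with GC and length trends removed. Zfp281 was higher there by 0.64 (adjusted p = 0.00212).

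Of the splicing, RNA and spindle genes (4), 1 rose and 1 fell at 2 h in NIH/3T3, 3 and 1 at 5 h, and 1 and 2 at 48 h, against 0 and 1, 2 and 1, and 0 and 0 in CGR8. Zfp207 in NIH/3T3 went from 266, 311 and 278 CPM to 362, 405 and 363 CPM at 5 h (0.40) and then below its start, to 198, 205 and 196 CPM at 48 h (-0.51 ± 0.09 SE, adjusted p = 0.000131). In CGR8 it went from 337, 370 and 326 CPM to 476, 538 and 548 CPM at 5 h (0.60) and was at 336, 358 and 372 CPM at 48 h. All 5 h libraries were above all 0 h libraries in both lines. Zfp106, an RNA-binding protein, fell at 5 h in both lines (-0.72 and -0.97). Zfp326, of the DBIRD complex that couples splicing to elongation, rose by 0.37 and 0.61 at 5 h. The first of these calls ended with GC and length trends removed (adjusted p = 0.0991) and the second with sample weights (adjusted p = 0.0591).

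Of the 3 ubiquitin and SUMO ligases, 0 rose and 1 fell at 2 h in each line, 1 and 1 in NIH/3T3 and 1 and 2 in CGR8 at 5 h, and 0 and 0 and 1 and 0 at 48 h. Zfp451, a SUMO ligase, rose at 5 h (0.53 in NIH/3T3 and 0.38 in CGR8). The CGR8 call was lost without 5 h C (adjusted p = 0.101) or 0 h B (0.0501). It was also lost with library size alone (0.12) and with the compared groups alone (0.053). Of 6 widely expressed regulators, 2 rose and 2 fell at 5 h in NIH/3T3 and 0 and 3 in CGR8. At 2 h it was 1 and 1, and 0 and 2, and at 48 h 1 and 0, and 0 and 0. Zfp384 fell at 5 h in both lines (-0.53 and -0.61) and Zfp335 likewise (-0.92 and -1.04, the latter not called with GC and length trends removed, adjusted p = 0.0594). Zfp148, a regulator that binds GC-rich promoters, was higher by 0.73 at 5 h and 0.45 at 48 h in NIH/3T3, and the latter turned to -0.33 (adjusted p = 0.0384) with GC and length trends removed.

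KAP1 and its partners, the machinery that KRAB proteins work through, moved in both directions, and their counts stand beside the same shares of all genes. Of 22 such genes, 1 rose and 8 fell at 2 h in NIH/3T3, 4 and 7 at 5 h, and 7 and 4 at 48 h. In CGR8 it was 0 and 3, 4 and 6, and 2 and 1. Trim28, which codes for KAP1 itself, fell at 5 h in NIH/3T3 (-0.51 ± 0.11 SE, adjusted p = 0.00144) and rose at 48 h in CGR8 (0.47 ± 0.11 SE, adjusted p = 0.00497). Zbtb genes, another zinc-finger family, rose in 7 and fell in 7 of 30 at 5 h in NIH/3T3 and in 2 and 9 of 31 in CGR8. Zscan and Zkscan genes rose in 5 and fell in 1 of 14 in NIH/3T3 and in 3 and 5 of 16 in CGR8.

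The lines were compared by testing the difference of their changes in 1 model over 30 libraries, in which all 285 members were tested. A positive difference means a higher change in CGR8. At 1 h, 0 were higher (background 0.0171% of 17549 genes) and 1 lower (background 0.142%), with 16 at an unadjusted p under 0.05. With RLE factors, 706 of all 17549 genes were under 0.05 unadjusted. At 2 h, 14 were higher (background 0.872%) and 1 lower (background 1.16%), with a member median of 0.15 log2 against 0.07 over all genes. At 5 h, 19 were higher (background 8.18%) and 18 lower (background 5.09%), with a median of -0.18 against 0.13 over all genes. At 48 h, 24 were higher (background 9.78%) and 32 lower (background 12.1%), with medians of -0.05 and -0.03. The split at 5 h depended on the scale and on single libraries. Library size alone gave 5 higher and 24 lower (3.77% and 8.2% of all genes), and GC and length offsets 35 and 17 (12.1% and 6.27%). Leaving out CGR8 5 h C gave 19 and 39 (11.4% and 6.65%), NIH/3T3 0 h C 13 and 8 (5.4% and 3.64%), and CGR8 0 h A 9 and 9 (5.22% and 3.68%). Sample weights gave 34 and 87 (23.1% and 13.2%), and leaving out the low-weight libraries, chosen after seeing the data, 27 and 69 (16.2% and 9.63%). The all-gene median at 5 h depends on the scale and was -0.06 with library size alone. Of the called differences at 5 h, 9 higher and 12 lower were KRAB genes.

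Across the 267 members tested in both lines, which share no library, 37 were called in both at 2 h: 11 rose in both, 24 fell in both, and Zfp39 and Zfp747 went opposite ways. The 24 include Zfp251 and Zfp296, chosen for that fall. Of all 12369 genes tested in both lines, 14.8% were called in both at 2 h, 5.76% risen and 8.59% fallen, against 37 of 267 members. At 5 h 97 were called in both, 63 risen and 32 fallen, with Zfp185 and Zfp869 opposite. Over all genes 34.8% were called in both, 14.5% risen and 18.4% fallen. Zfp185 lay at 0.113 to 0.555 CPM in NIH/3T3, near the floor of 3 counts. At 48 h 23 were, 18 risen and 2 fallen (Zfp410 and Zfp706), with Zfp28, Zfp365 and Zfp639 opposite. Over all genes 16% were, 5.42% risen, 6.6% fallen and 3.96% opposite. The Zfp706 call was lost in NIH/3T3 with library size alone (adjusted p = 0.0865), with no filter (adjusted p = 0.0841) and when any 1 of the 6 libraries was left out, and in CGR8 without 0 h B (adjusted p = 0.0896). These genes were named after their values were seen. Pearson's r across the 267 was 0.65, 0.70 and 0.29 at 2, 5 and 48 h, and Spearman's rho 0.64, 0.71 and 0.28. The values are descriptions across genes, which are not independent replicates.

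**Figure D5:**
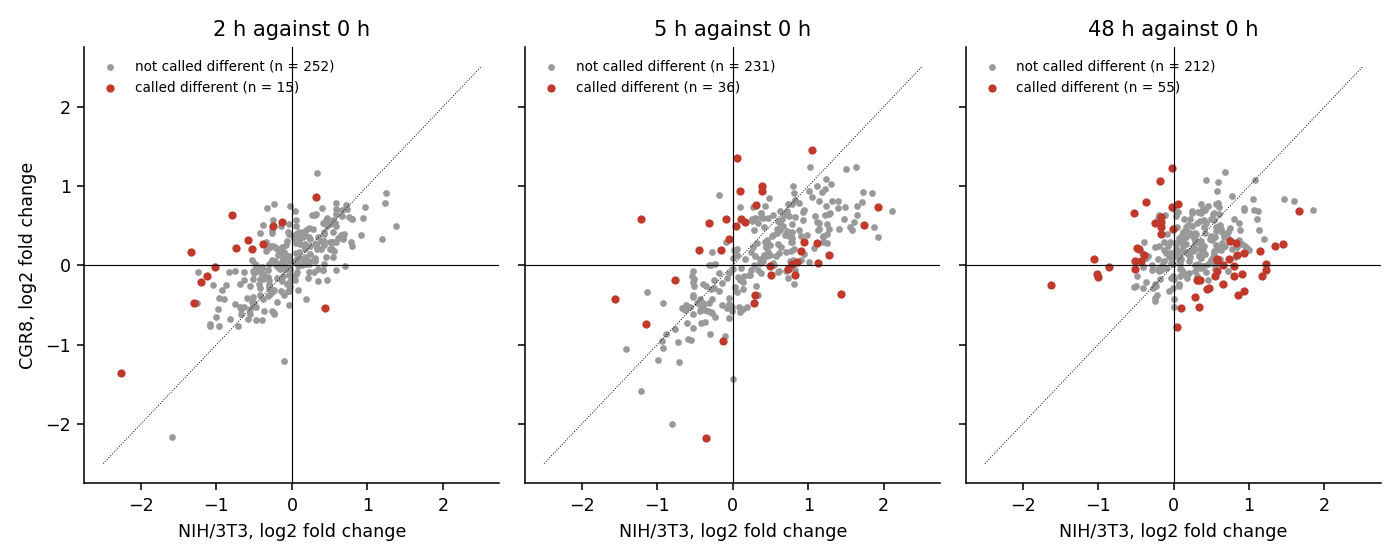
Fitted log2 fold change in CGR8 against NIH/3T3 at 2, 5 and 48 h, one point per Zfp gene tested in both lines, with genes whose difference was called in red. Points follow the diagonal at 2 and 5 h (r 0.65 and 0.70) and spread at 48 h (r 0.29).

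Among members at 5 CPM or more, Zfp516 had the lowest called difference at 5 h. In NIH/3T3 it was at 27.5, 31.2 and 25.6 CPM at 0 h and 21.3, 21.1 and 23.8 CPM at 5 h (-0.35, adjusted p = 0.0506), and at 51, 51.4 and 49.8 CPM at 48 h. The NIH/3T3 fall was small beside the CGR8 one given above, and the difference was -1.75 ± 0.25 SE (adjusted p = 1.72e-05). Zfp747 had moved apart by 2 h: from 13.6, 14.5 and 13.7 to 19.5, 18.4 and 18.7 CPM in NIH/3T3 and from 11.4, 13.8 and 11.9 to 8.38, 9.5 and 7.58 CPM in CGR8. Both shifts left their 0 h libraries without overlap, in opposite directions, with a difference of -0.93 ± 0.14 SE (adjusted p = 0.000145). Zfp39 went the other way at 2 h, from 8.04, 8.83 and 7.65 to 2.83, 5.68 and 5.44 CPM in NIH/3T3 and from 4.46, 3.87 and 5.52 to 5.5, 8.06 and 7.84 CPM in CGR8 (difference 1.48 ± 0.27 SE, adjusted p = 0.00118). In CGR8 1 library of 2 h lay within the 0 h range.

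Zfp580, with 3 fingers and a GC of 66.1%, was among the genes that differed at 48 h. It went from 3.75, 3.2 and 3.75 CPM to 8.08, 8.34 and 7.65 CPM in NIH/3T3, while CGR8 held 6.16, 5.97 and 5.27 CPM at 0 h and 4.73, 5.93 and 5.14 CPM at 48 h (difference -1.33 ± 0.23 SE, adjusted p = 8.15e-05). The NIH/3T3 groups were apart and the CGR8 groups overlapped. Zfp251 differed at 2 h by 0.95 log2, the fall in NIH/3T3 being the larger, given without a test as above.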

How the data were processed

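Column-purified RNA went into strand-specific ligation libraries, per the labels' protocols. The deposited table holds whole-number read counts by gene in 30 columns, each 1 library, and 0 columns were unused. The submitters' processing notes name STAR, DESeq2 and GRCm39. The counting tool, its use of strand and the annotation are not given in the sources used here. Symbols came from a table matching 51880 of 57186 identifiers (90.7%). GC content, length and coding sequence came from GENCODE M21 on GRCm38, another build, so its coordinates are those of the reference and not of the count table.

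Counts were fitted by line with edgeR 4.0.16 (R 4.3.3): 15 libraries, 1 coefficient per time, filterByExpr (minimum count 10, total 15), TMM factors and the quasi-likelihood F test, with Benjamini-Hochberg adjustment over all genes tested and calls at an adjusted p under 0.05. Differences between lines were tested in 1 model of 30 libraries. SE is the fitted log2 change over the square root of F. CPM per library is TMM-scaled, and medians per library used a pseudocount of 0.5 CPM. A floor of 3 counts is 0.098 to 0.165 CPM and covers counting error only. Members and lists were chosen with earlier results of these data known. Named genes are, per line and time, the 5 largest falls and 3 largest rises among called members at 5 CPM or more whose libraries did not overlap, the 2 largest called differences between lines in each direction, role list members, and the 3 most abundant. Alternatives used DESeq2 1.42.0 and limma 3.58.1, and the fitting code was tested on simulated data.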

Additional observations from a re-analysis of the deposited data

Results flagged for a closer look

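Each of the following differed between the lines by the interaction test of the edgeR model (CGR8 change minus NIH/3T3 change, log2, adjusted over all genes tested). Zfp747 differed by -0.70 at 1 h (adjusted p = 0.0283), a call lost under 13 of its alternatives, and by -0.93 at 2 h (adjusted p = 0.000145). Zfp775 differed by 1.56 at 2 h (adjusted p = 0.00068), at 2.42, 2.22 and 3.38 CPM at 0 h and 1.14, 1.04 and 1.03 CPM at 2 h in NIH/3T3. Zfp39 differed by 1.48 at 2 h (adjusted p = 0.00118). Zfp516 differed by -1.75 at 5 h (adjusted p = 1.72e-05). Zfp942 differed by -1.70 at 5 h (adjusted p = 0.0067), where CGR8 5 h libraries spread from 4.22 to 10.3 CPM. Zfp773 differed by 2.44 at 5 h (adjusted p = 0.0389), with NIH/3T3 at 0 to 0.555 CPM, at or near the floor, a call lost under 10 alternatives (adjusted p = 0.0507 with RLE factors and 0.139 without NIH/3T3 5 h C). Zfp185 differed by 1.89 at 5 h (adjusted p = 0.000649) and 1.35 at 48 h (adjusted p = 0.014), with NIH/3T3 at 0.113 to 0.555 CPM. Without NIH/3T3 48 h A the latter was 1.11 (adjusted p = 0.101). Zfp580 differed by -1.33 at 48 h (adjusted p = 8.15e-05) and Zfp946 by -1.31 (adjusted p = 0.00493). Zfp9 differed by 1.39 at 48 h (adjusted p = 0.0499), with CGR8 at 0.0403 to 0.373 CPM, and was lost under 16 alternatives.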

How the results depend on the processing

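Of 3666 alternative values for 212 results on single named genes, 3353 were counted as the same. Another 159 dropped under the threshold, 138 passed it and 16 changed sign. In each of the 16 the value was called in the main fit or in the alternative. Any change of sign between uncalled values is not among the 16. Depth limits members near the floor of 3 counts, such as those at or near 0 in one line. Counts at 1 h depended on library spread and tool. The cause was not tested in any of these.

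In NIH/3T3 at 1 h, where 1 member rose and 1 fell, DESeq2 gave 13 and 2 (1.41% and 0.495% of all genes), sample weights (voom) 115 and 9 (13.9% and 6.7%), no filter on low counts 22 and 3 (0.753% and 0.137%), GC and length offsets 14 and 3 (1.65% and 0.273%), and those offsets with the replicate block 13 and 2. A mean of at least 5 CPM gave 3 risen (1.06% of all genes), the replicate block 3 (0.746%) and the compared groups alone 0 (0.184%). Leaving out 1 h C and 2 h A, chosen after seeing the data, gave 95 risen and 7 fallen. With members at 10 CPM or more, 0 fell. Leaving out 1 library gave 1 to 30 risen. At 2 h sample weights gave 87 risen and leaving out both libraries 90, and leaving out 1 library gave 28 (0 h C) to 78 (2 h A). At 5 h, GC offsets gave 26 fallen (24.7% of all genes), or 27 with the block (24.4%), and 22 or 23 fallen without KRAB. With KRAB, 2 fell at a mean of 5 CPM and 7 without the low-weight libraries. At 48 h, GC offsets gave 43 fallen (28.3% of all genes), or 42 with the block (27.9%). They gave 46 higher than at 5 h without or with the block (31.5% and 31.1%).

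In CGR8 at 1 h, where 2 rose and 2 fell, DESeq2 gave 8 risen (0.433% of all genes). Sample weights gave 44 risen and 16 fallen (3.26% and 3.3%), no filter 26 risen (0.413%) and a mean of 5 CPM 4 (0.253%). GC offsets gave 5 (0.408%), those with the block 4 (0.339%), the compared groups alone 5 (0.223%), and leaving out 0 h B and 2 h A 1. With members at 10 CPM or more 1 fell. Leaving out 1 library gave 0 risen and 1 to 2 fallen. At 2 h, GC offsets gave 64 risen and 20 fallen, those with the block 61 and 20, the compared groups alone 12 and 18, and leaving out 1 library 16 (2 h C) to 54 (2 h A) risen and 19 to 39 fallen. At 5 h, library size alone gave 54 risen, 36 of them KRAB, and leaving out 1 library 54 (5 h C) to 101 (5 h A), 35 to 72 with KRAB. KRAB members fell in 25 with sample weights, 16 with GC offsets, 16 with the block too, 16 without the low-weight libraries, and 6 to 13 leaving out 1 library. Of all genes, 33.2% fell with sample weights, 23.0% with GC offsets and 22.4% with the block too. Without KRAB, GC offsets gave 43 risen and 28 fallen (23.8% and 23.0% of all genes), and 43 and 29 with the block (23.0% and 22.4%). At 48 h, sample weights gave 84 risen and 26 fallen, no filter 76 risen, the compared groups alone 70 risen, GC offsets 25 fallen and 26 with the block, and leaving out 1 library 29 to 37 risen and 4 to 8 fallen. Against 5 h, GC offsets gave 90 lower (28.3% of all genes), or 91 with the block (27.7%).

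For the differences between lines at 1 h, library size alone, the replicate block, the compared groups alone and leaving out the low-weight libraries gave 0, DESeq2, no filter, GC offsets and those with the block 2, sample weights 5, and leaving out 1 library 0 to 1. At 2 h GC offsets gave 34 (1.78% of all genes higher and 1.81% lower), or 30 with the block (1.53% and 1.65%). The compared groups alone gave 7 (0.291% and 0.813%). At 5 h sample weights gave 121, leaving out the low-weight libraries 96, and leaving out 1 library 18 (CGR8 0 h A) to 58 (CGR8 5 h C). At 48 h sample weights gave 116 (19.9% of all genes higher and 23.5% lower).

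The 16 changes of sign counted above all came with GC and length offsets, with and without the replicate block. Zfp131 at 5 h in NIH/3T3 was -0.27, Zfp148 -0.33 at 48 h in NIH/3T3, 0.40 at 5 h and -0.36 at 48 h in CGR8, Zfp217 0.25 at 5 h in CGR8, and Zfp292 -0.61 at 48 h in NIH/3T3 (-0.60 with the block). Zfp462 in NIH/3T3 was 0.36 at 2 h and -0.00 at 48 h.

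The labels do not say that a replicate letter marks a shared day or passage. Deviations of same-lettered libraries correlated from -0.55 to 0.57 (median 0.06) in NIH/3T3 and -0.80 to 0.74 (median 0.06) in CGR8, so the letters were not taken as pairs. With the replicate block, 110 KRAB members rose at 5 h in NIH/3T3 and 58 in CGR8 (24.3% and 24.6% of all genes).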
